A study of Homo sapiens with 6 samples.

Results

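The SLC2A genes encode the facilitative sugar transporters (GLUT proteins), and 10 of them are described here in K562 lines with and without PU.2, a shortened form of the blood cell factor PU.1 that lacks its N-terminal end. They are SLC2A1, SLC2A3, SLC2A14, SLC2A4, SLC2A5, SLC2A6, SLC2A8, SLC2A10, SLC2A11 and SLC2A13. Every probe set annotated to any of them was taken, which gave 10 probe sets among the 33297 of the array table, 21214 of which carried a gene symbol. Each of the 10 genes had 1 probe set, and each of these carried that 1 symbol alone, also for the near copies SLC2A3 and SLC2A14. The family was picked from results of these same arrays that were already known, so the differences between the groups are given for its members as a description, with no p-value. K562 is a human cell line from a chronic myeloid leukemia whose cells can take on erythroid features. The 6 samples were monoclonal lines, 3 that carry stable empty pEF1α (the vector lines) and 3 that carry pEF1α-Pu.2, a plasmid with the EF1α promoter and the murine Pu.2 cDNA. All 6 lines were kept in puromycin (2 μg/mL), and each was a single clone measured on 1 Affymetrix Human Gene 1.0 ST array, so that n counts clones. The labels name an insect cell medium for these lines, whereas the methods of the study name RPMI medium for K562.

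GLUT proteins let hexoses move down their concentration gradient across a membrane, and hexokinases then trap glucose in the cell by phosphorylation. GLUT1, encoded by SLC2A1, is the main glucose transporter of human red cells, where it also carries the oxidised form of vitamin C and is tied to the membrane skeleton. GLUT3, encoded by SLC2A3, has a high affinity for glucose and is known from neurons, platelets and white blood cells.

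The markers were looked at for the K562 label of the lines, and a signal of Pu.2 itself is not reported here. All 9 erythroid or K562 markers (GATA1, TAL1, KLF1, TFRC, EPOR, HBE1, HBZ, ALAS2 and LMO2) lay at or above the median of the array in each line. HBZ and ALAS2 were higher in the pEF1α-Pu.2 lines (adjusted p = 0.0145 and 0.00909 from limma), and the other 7 were not called. The study lists both among genes raised by PU.2 on these same arrays, so their rise is no independent check of the label. The mean log2 value over the 9 markers ran from 8.17 to 8.38 in the vector lines, against 8.78 to 9.02 in the pEF1α-Pu.2 lines. The median difference of the 9 was 0.21. Of the 5 T cell markers 4 lay under the array median in each line. The fifth, CD3D, had log2 values of 6.74, 6.98 and 6.08 in the vector lines against 5.34, 5.58 and 5.12 in the pEF1α-Pu.2 lines, and the mean over the 5 ran from 4.55 to 4.82 and from 4.30 to 4.57. None of the markers of T cells (5), B cells (2 measured), monocytes (4) or stroma (4) passed limma, while before adjustment 1 was higher (PDGFRB) and 1 lower (CD3D) at p under 0.05. Under the array median in all lines lay MS4A1 of the B cell markers, CD14, FCGR3A and MRC1 of the monocyte markers and COL3A1 and PDGFRB of the stroma markers. CD79A and CSF1R reached it in 1 line each and COL1A2 in 3, and COL1A1 lay above it in all 6. The means over the measured markers ran from 4.48 to 4.61 in the vector lines and from 4.37 to 4.47 in the pEF1α-Pu.2 lines for B cells, from 4.20 to 4.23 and from 4.21 to 4.31 for monocytes, and from 5.32 to 5.5 and from 5.37 to 5.68 for stroma. The part of these marker shifts in the results below was not tested. Array medians ran from 5.30 to 5.42. Vector line 3 correlated with vector lines 1 and 2 at r = 0.975 and 0.983 across probe sets and with the pEF1α-Pu.2 lines at r = 0.979 to 0.982. Vector lines 1 and 2 each correlated with the pEF1α-Pu.2 lines at a similar r = 0.978 to 0.981, and with each other at r = 0.986. Probe sets are not independent replicates in these correlations.

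SLC2A1, the member with the largest positive difference, is shown with the 250 bases before its start. Windows of this kind were matched for 8 of the 10 members in the RefSeq table (GRCh38.p14), all but SLC2A3 and SLC2A4. Capitals mark the CCAAT box, the TATA box letters TATAAA and, on either strand, each match of the KLF consensus core CNCNCCC.
SLC2A1 (GRCh38.p14, chr1:42958869-42959118, minus strand): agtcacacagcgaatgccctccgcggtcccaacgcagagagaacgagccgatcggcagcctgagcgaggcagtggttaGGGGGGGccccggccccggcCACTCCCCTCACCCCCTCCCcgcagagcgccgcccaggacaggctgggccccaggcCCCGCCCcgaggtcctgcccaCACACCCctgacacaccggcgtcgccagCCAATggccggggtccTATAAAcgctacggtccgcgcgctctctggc
The KLF letters stood in this window 7 times, some of the matches overlapping each other, and the CCAAT and TATA letters once each. On either strand, these letters were found in 70.4%, 32% and 10.7% of 35116 windows of the same length, in that order. Letters searched and not found in the SLC2A1 window were the GATA site AGATAA (in 9.17% of all windows), its other form TGATAA (in 6.66%), the ETS site GAGGAA (in 23.6%) and the hypoxia elements ACGTG (in 18.5%) or, in the other form, GCGTG (in 32.2%). A member was counted when any of its windows matched, and SLC2A11 had several windows, whereas the shares above are per window. The KLF letters were found in 7 of the 8 members, the CCAAT letters in 5 and the TATA letters in 2. The ETS letters were found in 1 of the 8 members (SLC2A11), and both GATA forms in 0. These are matches of letters only, and no binding was measured in these lines.

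Between the groups, SLC2A3 was lower and SLC2A1 higher in every pEF1α-Pu.2 line, and the groups overlapped in the other 8 members. Over all 21214 named probe sets, 67 (0.316%) passed limma with Benjamini-Hochberg adjustment at 0.05, 25 higher (0.118%) and 42 lower (0.198%). Of the 10 members 1 passed, SLC2A3, which was lower. The groups did not overlap in 2 of 10 members and in 13.8% of all named probe sets, with 1 member and 6.92% higher and 1 member and 6.86% lower. The median difference was -0.09 on the log2 scale over the members and 0.02 over all named probe sets, and 7 of the 10 differences lay below 0, as did 45.8% of all. Since the contrast was known when the family was chosen, nothing is read from these counts or from the call of SLC2A3. The call of SLC2A3 was lost in 10 of 15 alternative fits. It was lost when any line other than vector line 3 was left out, and with quantile normalization, median centring or cyclic loess. Since the RNA was taken from whole cultures, less transcript per cell and fewer cells with it cannot be told apart.

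**Figure D1:**
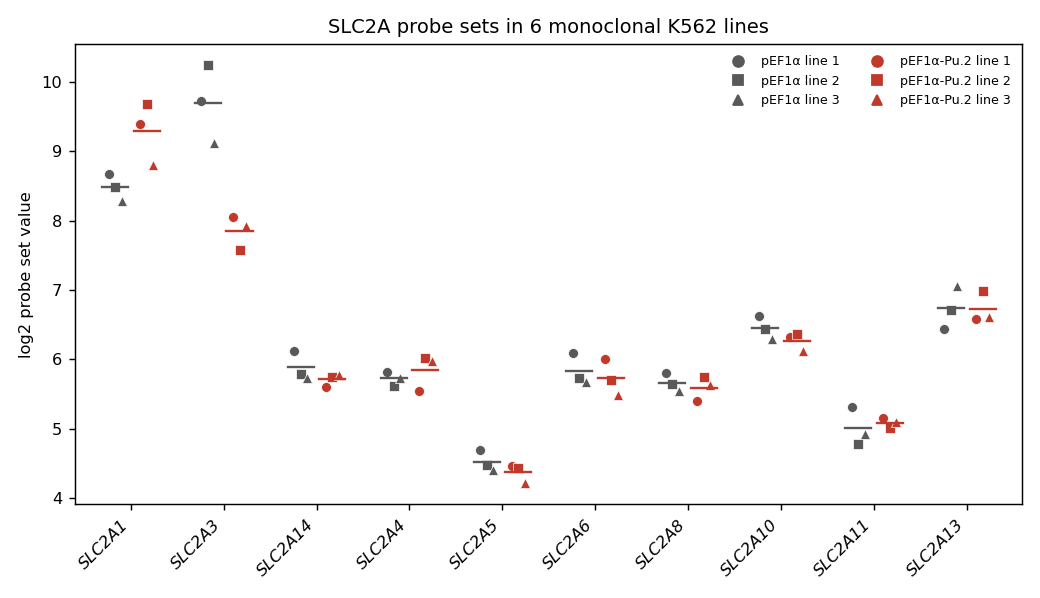
The vertical axis is the log2 value of each of the 10 SLC2A probe sets in the 6 K562 lines. Vector lines are gray and pEF1α-Pu.2 lines red, with 1 symbol shape per line number and a bar at each group mean (n = 3 lines). The red symbols lie below all gray ones for SLC2A3 and above all gray ones for SLC2A1, and gray and red overlap in the other 8 members.

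SLC2A3 had the largest difference of the family. Its log2 values were 9.72, 10.25 and 9.12 in vector lines 1, 2 and 3 and 8.05, 7.58 and 7.92 in pEF1α-Pu.2 lines 1, 2 and 3. The highest pEF1α-Pu.2 line thus lay 1.07 below the lowest vector line. Means were 9.70 ± 0.56 and 7.85 ± 0.24 (SD, n = 3 lines each), a difference of -1.84 (standard error 0.27), which is 3.59-fold lower. The vector lines spread over 1.13 and the pEF1α-Pu.2 lines over 0.47, so the gap of 1.07 between the nearest lines of the groups was close to the spread within the vector lines. Leaving out 1 line gave differences from -2.13 (without vector line 3) to -1.57 (without vector line 2), each below 0.

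SLC2A14, which encodes GLUT14 and arose as a copy of SLC2A3, did not share this pattern. Its log2 values were 6.13, 5.78 and 5.74 in the vector lines against 5.61, 5.75 and 5.77 in the pEF1α-Pu.2 lines. The groups overlapped, and vector line 1 alone stood above the rest. The difference was -0.17 (standard error 0.14). Values for SLC2A3 and SLC2A14 are uncertain in so far as near-identical sequence can bind probes of both, and whether their probes are shared in sequence was not analysed here.

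SLC2A1 had log2 values of 8.67, 8.48 and 8.29 in vector lines 1, 2 and 3 and of 9.39, 9.68 and 8.80 in the pEF1α-Pu.2 lines. The groups did not overlap, but pEF1α-Pu.2 line 3 lay only 0.13 above vector line 1, less than the SD of either group. Means were 8.48 ± 0.19 and 9.29 ± 0.45 (SD, n = 3 lines each), a difference of 0.81 (standard error 0.22), or 1.75-fold higher. SLC2A1 did not pass the threshold over all named probe sets. In rising order of level the lines were vector 3, vector 2, vector 1, pEF1α-Pu.2 3, pEF1α-Pu.2 1 and pEF1α-Pu.2 2, and no neighbours in this order were farther apart than 0.59, the step between pEF1α-Pu.2 lines 3 and 1. The difference was 0.62 without pEF1α-Pu.2 line 2 and 1.05 without pEF1α-Pu.2 line 3.

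SLC2A4 encodes GLUT4, the insulin-responsive transporter of muscle and fat. Its log2 values were 5.82, 5.62 and 5.74 in the vector lines against 5.54, 6.02 and 5.98 in the pEF1α-Pu.2 lines. pEF1α-Pu.2 line 1 was the lowest of all 6 and lines 2 and 3 were the highest, with a difference of 0.12 (standard error 0.15).

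SLC2A5 encodes GLUT5, the fructose transporter. It gave 4.69, 4.48 and 4.41 in the vector lines against 4.46, 4.44 and 4.21 in the pEF1α-Pu.2 lines, below the array median in each line. With a difference of -0.15 (standard error 0.13) and so dim a signal, no difference in SLC2A5 was detectable on these arrays.

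SLC2A6, SLC2A8, SLC2A10 and SLC2A11 encode GLUT6, GLUT8, GLUT10 and GLUT11. GLUT6 and GLUT8 are known mainly from membranes inside the cell, and loss of GLUT10 causes arterial tortuosity syndrome. In all 4 the groups overlapped, with differences of -0.10 (standard error 0.17), -0.07 (0.14), -0.18 (0.14) and 0.08 (0.15), in that order. SLC2A10 ran from 6.29 to 6.63 in the vector lines, against 6.12 to 6.37 in the pEF1α-Pu.2 lines, so that pEF1α-Pu.2 line 3 lay below all others. SLC2A11 lay under the array median in every line, with 4.79 to 5.31 and 5.01 to 5.15.

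SLC2A13 encodes HMIT, which carries myo-inositol together with protons. Its log2 values were 6.43, 6.72 and 7.05 in the vector lines against 6.59, 6.99 and 6.61 in the pEF1α-Pu.2 lines. Vector line 1 was the lowest and vector line 3 the highest of all 6, and the group means were 6.74 ± 0.31 and 6.73 ± 0.22 (SD, n = 3 lines each), a difference of -0.01 (standard error 0.19).

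**Figure D2:**
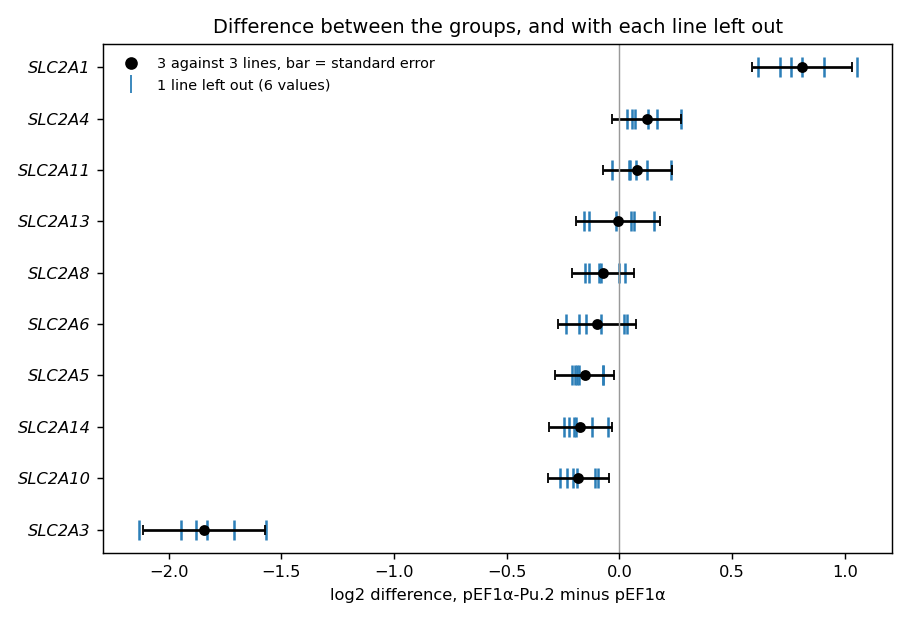
Log2 difference between the group means, pEF1α-Pu.2 minus pEF1α (horizontal axis), for the 10 SLC2A members, ordered by size, as black points with the limma standard error. Blue ticks are the differences with each of the 6 lines left out. SLC2A3 lies at -1.84 and SLC2A1 at 0.81, and the other 8 lie between -0.18 and 0.12.

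The vector lines also differed among themselves in the values of these members. Vector line 1 was the highest vector line in 8 of the 10 members and vector line 3 the lowest in 7. With each array centred on its median these counts were 7 and 7, and the array median itself was higher in vector line 1 (5.42) than in vector lines 2 and 3 (5.31 and 5.30). SLC2A3, highest in vector line 2, and SLC2A13, highest in vector line 3, were the exceptions, joined after centring by SLC2A4, then highest in vector line 3. Of the pEF1α-Pu.2 lines, line 2 was the highest in 5 members and line 1 in 4, and after centring line 1 in 5 and line 2 in 4. Which lines stood high thus varied from member to member, and no order of the lines held for the whole family. How often each line was highest or lowest over all named probe sets was not counted. The counts are therefore not read as a trait of the family.

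Patterns like that of SLC2A3 over the 6 lines were sought among 11093 probe sets with 1 symbol, at or above the median level. The most alike was that of MTM1 (Pearson r = 0.997), then TCAIM (0.997) and SPMIP4 (0.994). MTM1, the phosphoinositide phosphatase myotubularin, had log2 values of 6.43, 6.62 and 6.30 in the vector lines against 5.91 in pEF1α-Pu.2 line 2 and at most 6.01 in the other Pu.2 lines. TCAIM, a mitochondrial protein, had 7.02, 7.27 and 6.77 and then 6.16, 6.02 and 6.09. In both, as in SLC2A3, vector line 2 was the highest and pEF1α-Pu.2 line 2 the lowest. For SLC2A1 the most alike were PLAGL2 (r = 0.988), TTLL12 (0.984) and SLC35A4 (0.983). In the zinc finger gene PLAGL2 the values were 8.01, 7.87 and 7.85 and then 8.51, 8.78 and 8.22, so that pEF1α-Pu.2 line 2 was again the highest. In all, 75 of these 11093 probe sets had r over 0.95 with SLC2A3 and 21 with SLC2A1. These values are a description over 6 lines that fall into 2 groups. The named genes were picked for this likeness, so the order of lines they share is no further result.

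SLC2A1 and SLC2A3 were compared with the nearest protein-coding genes on their chromosomes, in the order of the GRCh38.p14 gene table. ERMAP, a blood group gene of erythroblasts that the study lists among its induced genes, is the second gene from SLC2A1 on chromosome 1. The study also reports a rise of ERMAP by real-time RT-PCR, in K562 lines infected with retroviral vectors. On these arrays ERMAP had log2 values of 6.36, 6.11 and 7.03 in the vector lines against 7.52, 7.69 and 7.44 in the pEF1α-Pu.2 lines. The difference was 1.06 (adjusted p = 0.136 from limma). ZNF691, which lies between SLC2A1 and ERMAP, had a difference of -0.23 (adjusted p = 0.839), and SVBP, beyond ERMAP, one of 0.06 (adjusted p = 0.961). On the other side, CFAP144 and CFAP57 had 0.35 and 0.02 (adjusted p = 0.623 and 0.98), and EBNA1BP2, which lies between those, had no probe set matched and was not analysed here. Near SLC2A3 and SLC2A14 on chromosome 12, FOXJ2, the next gene, had 6.97, 6.71 and 6.70 and then 7.27, 7.21 and 7.20, a difference of 0.43 in the opposite direction to SLC2A3 (adjusted p = 0.27 from limma). C3AR1, the receptor for complement C3a, followed with 6.50, 6.46 and 6.72 and then 5.48, 6.55 and 5.36, a difference of -0.76 (adjusted p = 0.447), and NECAP1 with 0.29 (adjusted p = 0.639). On the far side of SLC2A14, NANOGNB and CLEC4C had differences of -0.01 and -0.14 (adjusted p = 0.985 and 0.859), at low signal. None of these measured neighbours passed the test.

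Of 60 measured genes in 9 lists around sugar transport and use, 0 passed limma over all named probe sets, while before adjustment 4 were higher and 1 lower at p under 0.05, where 3.86% and 5.69% of all named probe sets were. Their median difference was 0.02 on the log2 scale, as over all named probe sets. The lists were the other SLC2A genes, sodium-coupled sugar transporters, hexose phosphorylation, fructose, inositol, transporter partners, glucose and oxygen sensors, lactate and ascorbate. With vector line 3 left out 2 were higher (ADD2 and GLRX) and 2 lower (STOM and EPAS1), where 0.938% of all named probe sets were called higher and 1.43% lower. With any other single line left out, 0 were called in each direction. With array weights 4 were higher and 2 lower, and over all named probe sets 2.80% were higher and 4.43% lower.

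**Figure D3:**
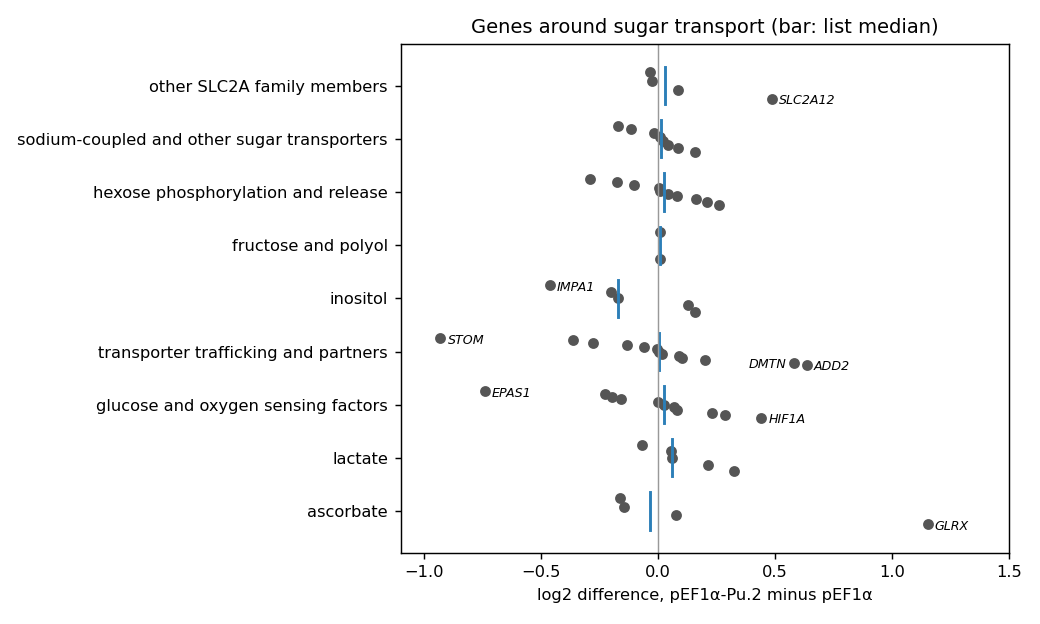
Log2 difference between the group means, pEF1α-Pu.2 minus pEF1α (horizontal axis), of each measured gene in the 9 lists around sugar transport, 1 gray point per gene, with a blue bar at the list median. The medians lie between -0.17 and 0.06, and genes over 0.4 from 0 are named, from STOM at -0.93 to GLRX at 1.15.

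Of the 4 remaining SLC2A genes, SLC2A2, SLC2A7 and SLC2A9 lay under the array median in each line, with differences of -0.03, 0.09 and -0.03. SLC2A12, which encodes GLUT12, had log2 values of 5.23, 4.97 and 5.56 in the vector lines against 5.57, 5.95 and 5.70 in the pEF1α-Pu.2 lines. The groups did not overlap, although vector line 3 lay only 0.01 below pEF1α-Pu.2 line 1, and the difference was 0.49 (adjusted p = 0.424 from limma). Among the 8 sodium-coupled and other sugar transporters the differences ran from -0.17 for the inositol carrier SLC5A3 to 0.16 for SLC5A10 (adjusted p = 0.835 and 0.76).

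Among the 13 measured genes of transporter trafficking, partners of GLUT1 in the red cell membrane had the largest differences. STOM encodes stomatin, a membrane protein that binds GLUT1 in red cells. It had log2 values of 7.93, 8.56 and 7.43 in the vector lines against 6.95, 7.31 and 6.87 in the pEF1α-Pu.2 lines. The groups did not overlap, and the difference was -0.93 (adjusted p = 0.278 from limma, and 0.0248 without vector line 3). ADD2 and DMTN, for proteins that link GLUT1 to the red cell skeleton, had differences of the other sign. Neither these genes nor STOM passed the test over all lines. ADD2, which encodes β-adducin, had 5.39, 5.51 and 6.02 and then 6.46, 6.30 and 6.05, a difference of 0.63 (adjusted p = 0.304 from limma, and 0.0326 without vector line 3). Leaving out any other single line gave no call for STOM or ADD2. DMTN, which encodes dematin, had 5.58, 5.06 and 5.46 and then 6.21, 5.64 and 5.99, a difference of 0.58 (adjusted p = 0.369). In ADD2 and DMTN the groups did not overlap either, but vector line 3 lay only 0.03 below the lowest pEF1α-Pu.2 line for ADD2. The gap between the nearest lines of the groups was 0.05 for DMTN and 0.13 for STOM. Separation of the groups was not particular to these partners of GLUT1. It was also seen in VPS29 of this list, with a difference of 0.20 (adjusted p = 0.697 from limma). In the other lists it was seen in SLC2A12, SLC5A10, ADPGK and SLC37A4. Of all named probe sets, 13.8% had groups that did not overlap. TXNIP, an arrestin that lowers GLUT1 at the cell surface, had a difference of -0.28 (adjusted p = 0.644). VPS35, a retromer subunit that returns GLUT1 to the surface, had one of 0.02 (adjusted p = 0.979).

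Enzymes that act on hexoses showed small differences. HK1 and HK2, the hexokinases that trap glucose, had differences of 0.04 and 0.002 (adjusted p = 0.972 and 0.997 from limma). In the hexose phosphorylation list of 10 measured genes the largest were -0.29 for G6PC3, with 7.62, 7.57 and 6.58 in the vector lines against 6.95, 7.08 and 6.87 in the pEF1α-Pu.2 lines, and 0.26 for the dim HK3. KHK and TKFC of fructose metabolism had 0.01 each. IMPA1 and ISYNA1 of inositol synthesis had -0.46 and -0.20, with overlap of the groups. LDHA, which makes lactate, had -0.07, BSG, the chaperone of lactate carriers, 0.21, and the dim SLC16A7 0.32 (adjusted p = 0.941, 0.835 and 0.602).

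The factors that sense oxygen and glucose did not pass the test. HIF1A had 7.33, 7.81 and 8.16 in the vector lines against 8.16, 8.28 and 8.20 in the pEF1α-Pu.2 lines, a difference of 0.44 (adjusted p = 0.545 from limma). EPAS1, its relative HIF2α, had 7.17, 7.29 and 5.48 and then 5.97, 5.99 and 5.76. Vector line 3 was the lowest of all lines for EPAS1. The difference was -0.74 (adjusted p = 0.671), and it was -1.32 without that line (adjusted p = 0.00198 from limma). GLRX, a glutaredoxin listed here for its reduction of oxidised vitamin C, had 4.61, 5.13 and 5.84 and then 6.55, 6.76 and 5.73, a difference of 1.15 (adjusted p = 0.31, and 0.0396 without vector line 3). pEF1α-Pu.2 line 3 and vector line 3 overlapped there. For EPAS1 and GLRX alike, leaving out any line other than vector line 3 gave no call. SLC23A1, a vitamin C carrier, had -0.16 (adjusted p = 0.81).

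**Figure D4:**
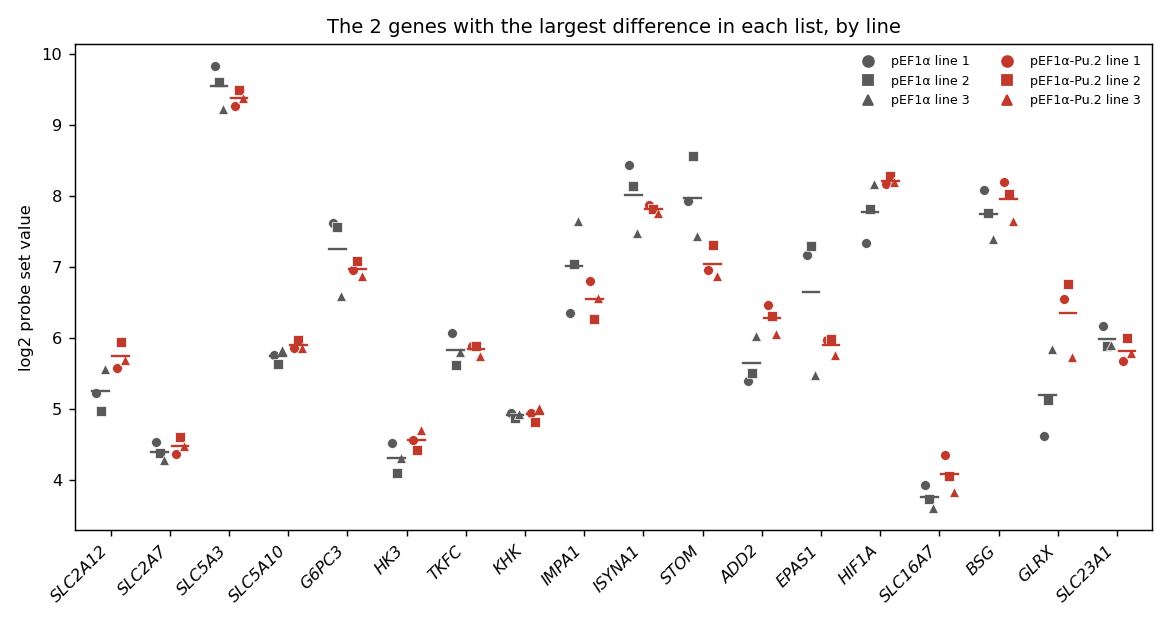
The vertical axis is the log2 value, by line, of the 2 genes with the largest absolute difference in each of the 9 lists. Vector lines are gray and pEF1α-Pu.2 lines red, with bars at the group means (n = 3 lines). The gray triangle of vector line 3 lies below the red symbols for EPAS1 (5.48) and near them for HIF1A (8.16) and ADD2 (6.02). The groups do not overlap for SLC2A12, SLC5A10, STOM and ADD2.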

How the data were processed

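RNA of each of the 6 K562 lines was measured on an Affymetrix Human Gene 1.0 ST array. The authors summarized the arrays with Expression Console software, and the values they deposited are log2 values, 1 for each probe set. How the software normalized and summarized them, and in which version, is not given in the sources used here. That the scale is log2 was read from the range of the values. The platform annotation gave 1 symbol to 19460 probe sets, several to 1754 and none to 12083. The 21214 named probe sets were fitted with limma (version 3.58.1; R 4.3.3), 3 against 3 lines, by lmFit and then eBayes with no trend. P-values were adjusted after Benjamini and Hochberg and judged at 0.05, with no filter on dim probe sets. For list genes the brightest probe set of their own was taken, and 9 of 69 list genes were not analysed here. An exact permutation test of 3 against 3 cannot go below p = 0.1. Precision is limited by having 6 arrays, and p-values measure the spread between these clones, which may be technical in part.

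The members and lists were chosen with earlier results of these data known. From the lists, each gene past the threshold and the 2 genes with the largest difference were named. HK1, HK2, LDHA, DMTN, TXNIP, VPS29, VPS35, ADPGK, SLC37A4, SLC2A2 and SLC2A9 were chosen after their values were seen. For SLC2A1 and SLC2A3 the 3 most correlated genes and the 3 nearest genes on each side were given, and for SLC2A14 the 3 nearest, except NANOG and EBNA1BP2. The probe set for NANOG, shared with a pseudogene, is not reported. In simulated data for the comparison of pEF1α-Pu.2 with pEF1α over 21214 probe sets, 10 of 50 changes of 1.5-fold, 31 of 50 of 2-fold, 43 of 50 of 4-fold and 50 of 50 of 8-fold were recovered, with 4 false calls among 138. Each simulated probe set was drawn independently from a normal distribution with its own SD. Shifts shared by a whole line were not part of it, so recovery and false calls may differ on the real arrays.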

Additional observations from a re-analysis of the deposited data

How the results depend on the processing

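The differences of SLC2A1, SLC2A3, SLC2A4, SLC2A5, SLC2A10 and SLC2A14 kept their sign in every alternative, from 0.62 to 1.05 for SLC2A1 and from -2.32 (array weights) to -1.57 for SLC2A3. SLC2A6, SLC2A8, SLC2A11 and SLC2A13 changed sign in 2, 1, 1 and 6 alternatives, at sizes of at most 0.25. The number of members called, 1 in the main fit, was 0 with quantile normalization, median centring, cyclic loess or all 33297 probe sets tested, 2 with array weights (SLC2A1 and SLC2A3), and 0 to 1 with 1 line left out, where it was 1 only without vector line 3.

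Replicate numbers did not pair the lines, since deviations of same-numbered lines correlated at r = -0.136, -0.143 and -0.0404. With the replicate number as a block 0 members were called, and 20 named probe sets were higher and 32 lower.

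Over all named probe sets, 25 were higher and 42 lower. With 1 line left out there were 5 to 199 higher and 6 to 304 lower, the most with vector line 3 removed (199 and 304), the fewest with pEF1α-Pu.2 line 1 removed (5 and 6). Array weights, which gave vector line 2 a weight of 5.82 and vector lines 1 and 3 weights of 0.403 and 0.478, called 595 and 940. With all probe sets tested there were 10 and 16, and 64 were lower with a trend and robust estimation. In the 9 lists, 0 higher and 0 lower calls became 4 and 2 with array weights and 0 to 2 in each direction with 1 line left out. The cause of these shifts was not tested. Probe sets under the array median, as for SLC2A5 and SLC2A11, limit what can be measured of these genes.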
